A study of Mus musculus with 24 samples.

Results

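The 10 genes described here encode liver enzymes of the methionine cycle, of transsulfuration and of taurine synthesis, with 1 enzyme of mitochondrial folate metabolism beside them. They were Mat1a, Gnmt, Nnmt, Ahcy, Bhmt, Cbs, Cth, Cdo1, Csad and Mthfd1l. They were taken from a list of names that was chosen with earlier results of these data known. Counts of calls among the 10 are therefore a description and no test of the list. The names were matched to the gene names of the deposited table, and all 10 were found among its 14995 genes. All 10 also passed the filter on low counts that kept 13121 genes for testing. In the methionine cycle, methionine is joined to ATP to give S-adenosylmethionine (SAM), the methyl donor of most methyltransferases. Each methyl transfer leaves S-adenosylhomocysteine (SAH), which is split into adenosine and homocysteine. Homocysteine is either methylated back to methionine, with betaine or a folate as the donor, or passed on through transsulfuration to cysteine, from which glutathione and taurine are made. The liver is the organ with the greatest capacity for these reactions.

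Messenger RNA was counted in mouse livers collected 20 weeks after surgery, in 8 libraries from each of 3 groups of obese mice. RYGB livers came from mice with a Roux-en-Y gastric bypass, an operation in which food bypasses most of the stomach and the first stretch of the small intestine. WM livers came from calorie-restricted mice whose weight was held at that of the RYGB mice, and Sham livers from mice with a sham operation. Whether WM mice were also operated on, and the strain, sex, age and diet of the mice, are not given in the labels used here. The labels give each library a number but do not say that each came from its own mouse, so p-values measure the spread between these libraries. The libraries were made from the 3′ ends of transcripts, at about 1 fragment a transcript.

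Counts per library summed to between 14002193 and 19958019 in RYGB, between 14208021 and 22766612 in WM and between 13659647 and 17391377 in Sham. All 14 markers of hepatocytes, the main cell type of the liver, averaged at least 1 CPM (counts scaled to library size) in each group. Their summed level was 148000 ± 24000 CPM in RYGB, 118100 ± 25000 CPM in WM and 74190 ± 14800 CPM in Sham (SD, n = 8 each), within ranges of 102600 to 174200, 96390 to 173300 and 46820 to 100200 CPM. In each comparison with Sham 10 of the 14 rose and 1 fell. Of all tested genes, 12.7% rose and 11.0% fell in RYGB, and 16.5% rose and 15.0% fell in WM. Of 11 tested markers of activated stellate cells and matrix, 5 fell in RYGB and 8 fell in WM against Sham, beside the same shares, and none rose. Their summed level was 292.1 ± 33.2 CPM in RYGB, 260.8 ± 53.6 CPM in WM and 527 ± 125 CPM in Sham, within ranges of 245.6 to 343.9, 197.2 to 362.5 and 363.9 to 770.4 CPM, and Col1a1, a collagen of scar tissue, averaged 3.184, 2.667 and 39.5 CPM. The log2 difference of the hepatocyte marker sum was 1.00 between RYGB and Sham, 0.67 between WM and Sham and 0.33 between RYGB and WM. Two-sided exact permutation tests of the hepatocyte sum gave adjusted p = 0.000466, 0.000932 and 0.0287 in the same order. Scaled by library totals, the differences were 0.66, 0.35 and 0.31 (adjusted p = 0.00233, 0.0336 and 0.0462 by the same test). Alb, the largest part of the sum, averaged 81620 CPM in RYGB, 52250 CPM in WM and 33590 CPM in Sham. Between RYGB and WM 0 of the 14 markers were called, beside 1.49% of all tested genes. The part of these shifts in the results below was not tested. In bulk tissue, fewer cells of a type and less RNA per cell cannot be told apart. Transcripts of pancreatic acinar cells stood out in 3 libraries. Sums over 14 genes were 2955 CPM in RYGB 18, 2936 CPM in RYGB 19 and 1318 CPM in Sham 17, against at most 25.7 CPM in the other 21 libraries. Cela1 of the same list was left out of these sums. It was called higher than in Sham in RYGB and in WM, with log2 fold changes of 2.08 and 2.29. With Cela1 included, the sum in library WM 1 was 187.67 CPM. Long transcripts were favoured in Sham libraries, in which the slope of log2 level on log2 transcript length averaged 0.126 ± 0.038, against -0.049 ± 0.05 in RYGB and -0.076 ± 0.056 in WM.

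Gnmt, Nnmt, Ahcy and Cdo1 were higher, and Csad lower, in both RYGB and WM livers than in Sham livers, comparisons that share the Sham libraries. Cth was higher in RYGB livers than in both other groups. Bhmt was lower in WM livers than in both other groups. Mat1a and Cbs passed no test. Mthfd1l, which was also called lower in both, passed the low-count filter only through its level in Sham, so its direction is counted below but supports nothing. By edgeR's quasi-likelihood test, 5 genes rose and 2 fell in RYGB against Sham at an adjusted p under 0.05, where 23.7% of all tested genes were called (12.7% higher and 11.0% lower). In WM against Sham 4 rose and 3 fell, beside 31.4% of all tested genes (16.5% higher and 15.0% lower). Between RYGB and WM, Bhmt and Cth rose and none fell, beside 1.49% of all tested genes (1.06% higher and 0.434% lower). The levels of RYGB and Sham libraries did not overlap for Nnmt and Ahcy, nor for Mthfd1l with its filter on the Sham level, as for 5.39% of all tested genes. Those of RYGB and WM libraries did not overlap for Bhmt, as for 0.358% of all tested genes. WM and Sham libraries overlapped for each of the 10, whereas 5.82% of all tested genes did not overlap.

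The 7 calls in each comparison with Sham and the 2 calls between RYGB and WM were also made without the 3 libraries with acinar transcripts, and with each library corrected for GC content and transcript length. Levels are CPM with library sizes scaled by TMM, which centred the median log2 fold change of all tested genes at -0.015 for RYGB and -0.008 for WM against Sham. Scaled by library totals instead, that median was -0.361 and -0.335, and the calls over all genes were 754 higher and 3534 lower for RYGB and 1049 higher and 3637 lower for WM. With TMM they were 1666 higher and 1443 lower for RYGB and 2161 higher and 1964 lower for WM. With library totals 4 of the 10 genes rose and 2 fell in RYGB against Sham, 3 rose and 3 fell in WM against Sham, and 1 rose between RYGB and WM. The calls lost were those of Cdo1 against Sham and of Cth between RYGB and WM.

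**Figure D1:**
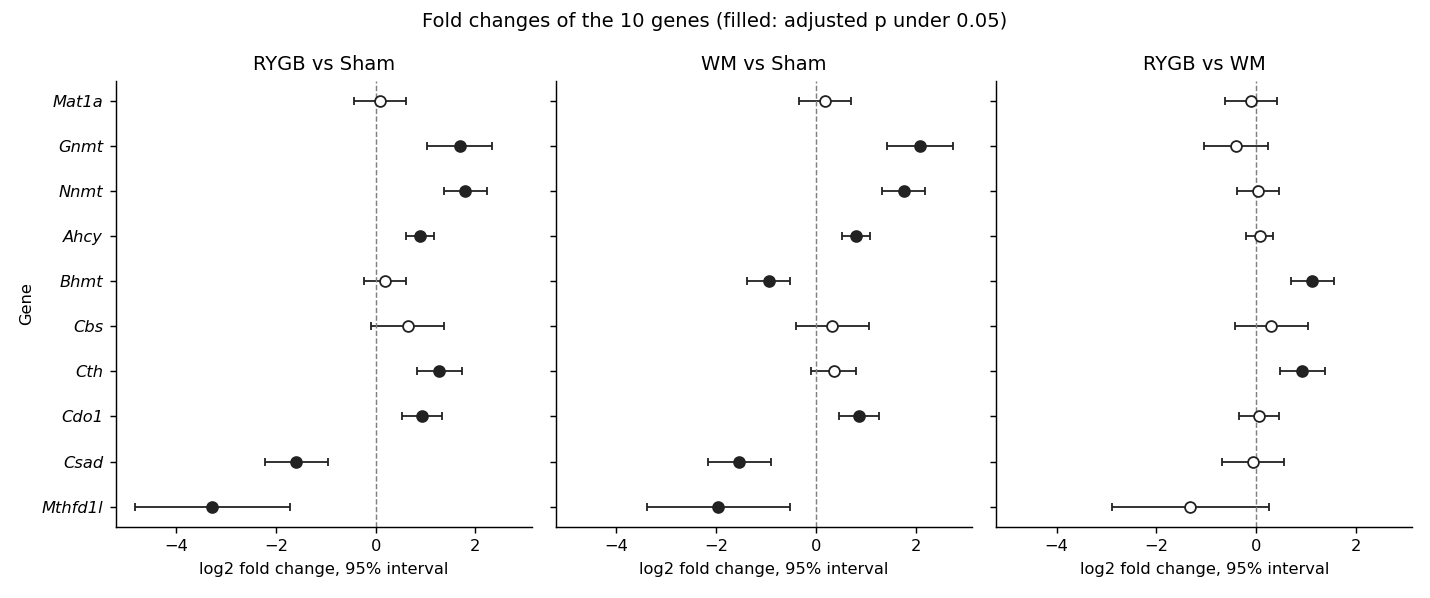
Log2 fold change of each of the 10 genes (rows, in pathway order) in RYGB against Sham, WM against Sham and RYGB against WM, as the edgeR estimate with its 95% interval. Filled points passed an adjusted p of 0.05 over all tested genes: 7, 7 and 2 of the 10. A positive value means higher in the group named first.

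The sequence just before the start of transcription is shown for 4 genes that stand for the different patterns, Gnmt and Ahcy as genes higher in both RYGB and WM, Bhmt as the gene lower in WM than in both other groups, and Csad as a gene lower in both. Promoters of 6 of the 10 genes were found in the RefSeq table (GRCm38.p6). Each printed run is the 250 bases before the RefSeq start, 5′ to 3′ on the gene's strand, the minus strand for all 4. Capitals mark matches to any of 6 motifs, which were searched on both strands. The TATA box was spelled TATAAA and the CCAAT box by its 5 letters. The half-site of nuclear receptors was spelled AGGTCA and the E-box CACGTG. The forkhead site was spelled GTAAACA and the cAMP response element TGACGTCA. No matches overlapped in these runs.
Gnmt, chr17:46729166-46729415: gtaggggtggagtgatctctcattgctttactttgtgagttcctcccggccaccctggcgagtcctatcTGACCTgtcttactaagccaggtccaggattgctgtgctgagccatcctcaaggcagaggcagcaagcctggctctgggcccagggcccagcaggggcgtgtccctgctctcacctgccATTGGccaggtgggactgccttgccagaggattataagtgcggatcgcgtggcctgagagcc
Ahcy, chr2:155074498-155074747: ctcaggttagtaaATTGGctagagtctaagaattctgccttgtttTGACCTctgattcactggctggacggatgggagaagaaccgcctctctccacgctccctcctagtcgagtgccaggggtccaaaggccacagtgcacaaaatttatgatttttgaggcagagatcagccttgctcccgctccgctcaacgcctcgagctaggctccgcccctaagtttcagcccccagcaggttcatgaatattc
Bhmt, chr13:93637759-93638008: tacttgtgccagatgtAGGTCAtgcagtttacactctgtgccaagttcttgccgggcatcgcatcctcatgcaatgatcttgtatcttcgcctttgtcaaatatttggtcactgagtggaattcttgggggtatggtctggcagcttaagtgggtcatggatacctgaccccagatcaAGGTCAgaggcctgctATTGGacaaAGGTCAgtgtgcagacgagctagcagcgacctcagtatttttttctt
Csad, chr15:102205053-102205302: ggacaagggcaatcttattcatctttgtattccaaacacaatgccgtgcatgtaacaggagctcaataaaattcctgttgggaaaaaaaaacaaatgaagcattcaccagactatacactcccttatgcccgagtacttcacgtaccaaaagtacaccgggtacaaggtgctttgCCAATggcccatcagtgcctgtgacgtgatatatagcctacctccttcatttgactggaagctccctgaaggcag
The Bhmt run held AGGTCA at 3 places, with first bases at -234, -72 and -47, and ATTGG, the CCAAT box on the other strand, at -56. GENCODE places the start of Bhmt further upstream, at 93637961, so the matches at -72, -56 and -47 lie inside the GENCODE gene. It places the start of Csad further downstream, at 102204724, so the printed Csad run does not adjoin the GENCODE gene. Of 32851 promoter windows in the table, 14.0% held AGGTCA on either strand at least once and 0.131% held it 3 or more times. The cut of 3 was counted for AGGTCA alone and equals the count in Bhmt, so this share tests nothing. Gnmt and Ahcy each held TGACCT, the same half-site on the other strand, once, at -181 and -205. Each of the 4 had 1 CCAAT box, which 33.8% of all windows held. None of the 4 held a TATA box, an E-box, a forkhead site or a cAMP response element, which 12.4%, 6.02%, 3.17% and 1.55% of the windows held. The table holds a further start of Csad, whose window held none of the motifs. A match is a run of letters and not a measured site, and binding was not measured here.

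Among the listed SAM-using enzymes, Gnmt showed the largest rise against Sham in weight-matched mice and Nnmt in bypass mice. Mat1a, the enzyme that makes SAM, passed no test. Mat1a (chromosome 14, 41105035 to 41124412, GRCm38 as for all positions here), the methionine adenosyltransferase of adult liver, spanned 2136 to 6096 CPM in RYGB livers (median 3949), 2680 to 7468 CPM in WM livers (median 3225) and 2447 to 4997 CPM in Sham livers (median 3570). The 3 groups covered much the same range. Its log2 fold change was 0.08 ± 0.25 (SE) in RYGB against Sham, 0.19 ± 0.26 in WM against Sham and -0.11 ± 0.25 in RYGB against WM, with edgeR adjusted p = 0.856, 0.614 and 0.949. The 95% intervals were -0.44 to 0.60, -0.34 to 0.71 and -0.63 to 0.42.

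Gnmt (chromosome 17, 46725664 to 46729168), which methylates glycine to sarcosine and so consumes SAM, spanned 1110 to 4695 CPM in RYGB livers (median 2188), 966.9 to 6912 CPM in WM livers (median 2887) and 447.4 to 1136 CPM in Sham livers (median 733.4). Every RYGB and WM library lay above the Sham median, and the ranges overlapped slightly at the top of the Sham group. Mean levels were 2423 ± 1190 CPM in RYGB, 3208 ± 1830 CPM in WM and 754.2 ± 260 CPM in Sham (SD, n = 8 each). Its log2 fold change was 1.68 ± 0.32 in RYGB against Sham and 2.09 ± 0.33 in WM against Sham, with edgeR adjusted p = 0.000341 and 1.98e-05. Gnmt has one of the shortest transcripts of the 10 genes, at 1035 bp, and the groups differed in the slope on transcript length. With each library corrected for GC content and length, the log2 fold change was 1.25 in RYGB against Sham and 1.46 in WM against Sham, with adjusted p = 0.00169 and 0.000254.

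Nnmt (chromosome 9, 48591877 to 48605153), which methylates nicotinamide with SAM, spanned 106.1 to 183.9 CPM in RYGB livers (median 140.4), 70.85 to 201.8 CPM in WM livers (median 133.5) and 27 to 75.87 CPM in Sham livers (median 35.24). All RYGB libraries lay above all Sham libraries, and 1 WM library fell within the Sham range. Its fold change on the log2 scale was 1.80 ± 0.21 in RYGB against Sham and 1.76 ± 0.21 in WM against Sham, a 3.48-fold and a 3.38-fold rise (edgeR adjusted p = 6.88e-07 and 5.14e-07). Nnmt is also known as a gene of adipose tissue. The summed level of 6 adipocyte markers was 86.29 ± 44.4 CPM in RYGB, 37.78 ± 18.6 CPM in WM and 37.34 ± 11.2 CPM in Sham, within ranges of 31.93 to 170.9, 10.72 to 60.2 and 23.81 to 55.98 CPM. Of 4 tested markers 2 rose in RYGB against Sham, beside 12.7% of all tested genes, and 0 were called in WM against Sham, beside 31.4%. The part of these markers in the level of Nnmt was not tested. Corrected for GC content and length, the log2 fold change of Nnmt, whose transcript has 1043 bp, was 1.38 in RYGB against Sham and 1.22 in WM against Sham.

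Ahcy (chromosome 2, 155059310 to 155074497), which splits the SAH left by all these methyltransferases, varied least among the genes of this branch. It spanned 205.5 to 291.6 CPM in RYGB livers (median 232.2), 170.7 to 277.2 CPM in WM livers (median 223.8) and 111.1 to 172.4 CPM in Sham livers (median 127.5). RYGB and Sham libraries did not overlap, and WM and Sham libraries met only at the edge. Log2 fold changes were 0.88 ± 0.14 in RYGB against Sham and 0.81 ± 0.14 in WM against Sham (edgeR adjusted p = 2.75e-05 and 4.84e-05). Gm4737, a copy that matches Ahcy at 99.7% over 2083 bp, took 0.435% to 2.059% of their summed counts, and how reads that fit both were assigned is not given in the sources used here.

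**Figure D2:**
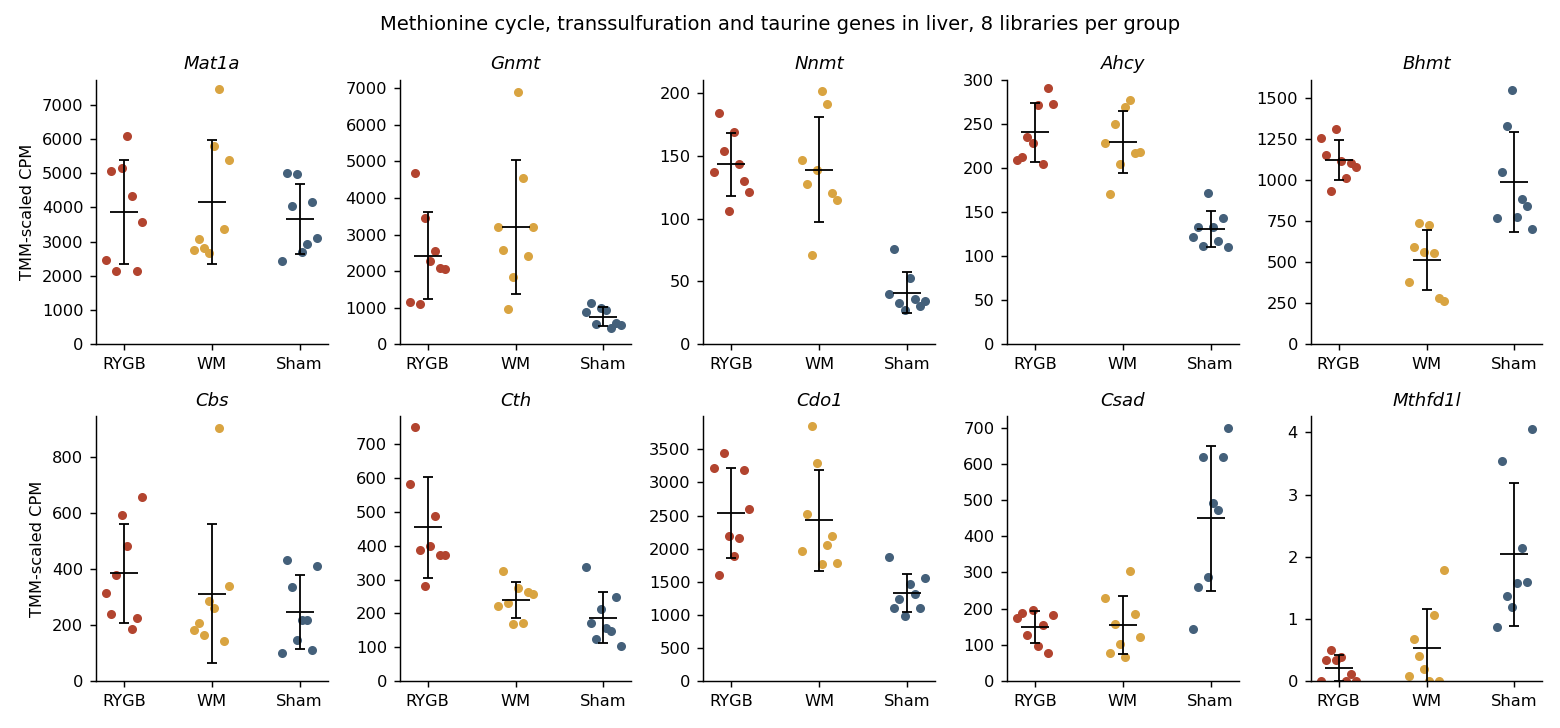
TMM-scaled CPM of the 10 genes in each library (points) of the RYGB, WM and Sham groups, with the group mean (long line) and SD (bars, cut at 0), n = 8 each, on linear axes that start at 0. Gnmt, Nnmt, Ahcy and Cdo1 lie higher, and Csad and Mthfd1l lower, in RYGB and WM than in Sham, Bhmt is low in WM, and Cth is high in RYGB.

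Among the enzymes that return homocysteine to methionine, Bhmt was lower in weight-matched livers than in both bypass and sham livers. It (chromosome 13, 93616675 to 93637961), the liver enzyme that methylates homocysteine with betaine, spanned 931.4 to 1308 CPM in RYGB livers (median 1112), 261.6 to 736 CPM in WM livers (median 560.6) and 702.7 to 1547 CPM in Sham livers (median 863.7). Every RYGB library lay above every WM library, and WM 20 and WM 9 lay above the lowest Sham library. Mean levels were 1120 ± 122 CPM in RYGB, 512.1 ± 185 CPM in WM and 987.3 ± 303 CPM in Sham. The log2 fold change was 1.13 ± 0.21 in RYGB against WM, a 2.19-fold difference, and -0.95 ± 0.21 in WM against Sham (edgeR adjusted p = 0.00264 and 0.000917). Between RYGB and Sham it was 0.18 ± 0.21 (adjusted p = 0.559), with a 95% interval of -0.24 to 0.60. The log2 difference of the hepatocyte marker sum was 0.33 in RYGB against WM, where 0 of its 14 markers were called, and 0.67 in WM against Sham. The part of this sum in the level of Bhmt was not tested.

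Gm5096 matches Bhmt at 99.4% over 1869 bp and took 0.895% to 2.255% of their summed counts. It averaged 15.8 CPM in RYGB, 7.75 CPM in WM and 13.3 CPM in Sham, in the same order as Bhmt, and reads of the pair may have been split between them. Across the 24 libraries, after taking off group means, it was also the gene whose level ran most like that of Bhmt (r = 0.79).

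Beside Bhmt, remethylation was represented by Mtr, which transfers the methyl group of folate, by Mtrr, which keeps Mtr active, and by Bhmt2, which uses S-methylmethionine as its donor. Mtr spanned 3.716 to 7.247 CPM in RYGB livers (median 5.217), 3.63 to 5.523 CPM in WM livers (median 4.345) and 4.311 to 9.19 CPM in Sham livers (median 7.77). All RYGB and all WM libraries lay below the Sham median, and the 3 ranges overlapped. Mtr was lower in WM than in Sham, with a log2 fold change of -0.63 ± 0.20 and adjusted p = 0.019, and stood at 0.24 ± 0.20 in RYGB against WM with adjusted p = 0.778. Bhmt2 and Mtrr passed no test. Of these 4 genes, 2 fell in WM against Sham, beside 15.0% of all tested genes. Bhmt alone rose in RYGB against WM, beside 1.06% of all tested genes. None was called in RYGB against Sham, where 23.7% of all tested genes were called.

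**Figure D3:**
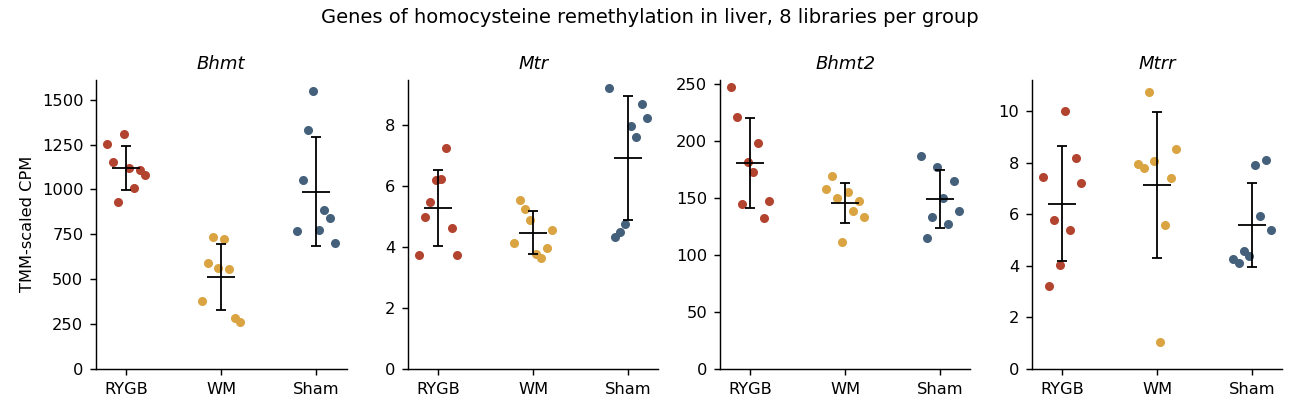
TMM-scaled CPM of 4 genes of homocysteine remethylation in each library (points) of the RYGB, WM and Sham groups, with the group mean (long line) and SD (bars), n = 8 each, on linear axes that start at 0. WM libraries lie low for Bhmt (261.6 to 736 CPM), while the groups overlap widely for Bhmt2 and Mtrr.

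Of the 2 enzymes of transsulfuration, Cth was higher after bypass and Cbs passed no test. Cth (chromosome 3, 157894248 to 157925077), cystathionine gamma-lyase, which releases cysteine, spanned 280.3 to 750.3 CPM in RYGB livers (median 393.3), 168.8 to 324.3 CPM in WM livers (median 244.2) and 103.5 to 335.8 CPM in Sham livers (median 162.9). Every RYGB library lay above the medians of both other groups, and RYGB 18 alone, 1 of the libraries with acinar transcripts, lay within both other ranges. Log2 fold changes were 1.28 ± 0.22 in RYGB against Sham and 0.93 ± 0.22 in RYGB against WM (edgeR adjusted p = 0.000115 and 0.0235). The call between RYGB and WM was lost under library totals (adjusted p = 0.0736) and without WM 1, RYGB 10 or RYGB 11 (adjusted p = 0.0509, 0.0612 and 0.0612, log2 fold changes 0.91, 0.87 and 0.79). In WM against Sham the log2 fold change was 0.36 ± 0.22 (adjusted p = 0.225), with every WM library above the Sham median, and limma-voom with quality weights gave 0.68 with adjusted p = 0.00475.

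Cbs (chromosome 17, 31608894 to 31637238), cystathionine beta-synthase, which joins homocysteine to serine, spanned 185.6 to 656.2 CPM in RYGB livers (median 345.8), 143.8 to 901.7 CPM in WM livers (median 234.2) and 100.2 to 432.4 CPM in Sham livers (median 218.4). The ranges overlapped widely, and 7 of 8 RYGB libraries lay above the Sham median. Its log2 fold change was 0.64 ± 0.36 in RYGB against Sham, 0.33 ± 0.36 in WM against Sham and 0.31 ± 0.36 in RYGB against WM, with edgeR adjusted p = 0.206, 0.513 and 0.854 and 95% intervals of -0.10 to 1.38, -0.40 to 1.07 and -0.43 to 1.04. The WM value rested on WM 25, without which the log2 fold change against Sham was -0.13.

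Within groups, the level of Cbs followed a property of the libraries, the slope of log2 level on the GC content of genes, a relation chosen after its values had been seen. The adjustment over 24 tests does not cover that choice, so the p-values given next are a description. Pearson's r was 0.835 in RYGB, 0.916 in WM and 0.965 in Sham, with adjusted p = 0.045, 0.0261 and 0.00476 by exact permutation of the 8 pairings over 24 tests of 12 relations. Spearman's rho was 0.643, 0.81 and 0.976, with adjusted p = 0.136, 0.0475 and 0.00476. Without the 2 libraries farthest from the median slope r was 0.778 in RYGB, 0.621 in WM and 0.974 in Sham. The part of this slope in the spread of Cbs was not tested beyond the correction for GC content and length, under which the log2 fold change of Cbs against Sham was 0.80 in RYGB and 0.47 in WM (adjusted p = 0.103 and 0.33).

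The 2 enzymes that lead from cysteine to taurine changed in opposite directions, in bypass and weight-matched livers alike. Cdo1 (chromosome 18, 46713193 to 46728395), cysteine dioxygenase, which oxidises cysteine to cysteine sulfinate, spanned 1598 to 3451 CPM in RYGB livers (median 2393), 1771 to 3855 CPM in WM livers (median 2118) and 986.8 to 1869 CPM in Sham livers (median 1279). All RYGB and WM libraries lay above the Sham median, with a narrow overlap. The log2 fold change was 0.93 ± 0.20 in RYGB against Sham and 0.87 ± 0.20 in WM against Sham (edgeR adjusted p = 0.000958 and 0.00127). Scaled by library totals it was 0.57 and 0.56, and neither passed (adjusted p = 0.0628 and 0.0608).

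Csad (chromosome 15, 102176999 to 102204724), cysteine sulfinate decarboxylase, which makes hypotaurine, spanned 77.15 to 196.2 CPM in RYGB livers (median 163.1), 65.16 to 303 CPM in WM livers (median 138.4) and 144 to 700.1 CPM in Sham livers (median 483.1). All RYGB and WM libraries lay below the Sham median, with Sham 2 within the RYGB range and Sham 2, Sham 3 and Sham 6 within the WM range. Log2 fold changes were -1.59 ± 0.31 in RYGB against Sham and -1.54 ± 0.31 in WM against Sham (edgeR adjusted p = 0.000392 and 0.000385). These levels were 0.331 and 0.345 times that of Sham. The 5′ end of Csad overlaps Zfp740 on the opposite strand, and whether the counting used strand is not given in the sources used here.

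Beside them, Slc6a6, the transporter that takes taurine into cells, was lower than in Sham livers in both groups, with log2 fold changes of -0.61 ± 0.20 in RYGB and -0.96 ± 0.20 in WM (edgeR adjusted p = 0.0221 and 0.000493). It spanned 46.07 to 105.3 CPM in RYGB livers, 43.64 to 95.91 CPM in WM livers and 81.5 to 154.7 CPM in Sham livers. Baat, which joins bile acids to taurine or glycine, was higher in WM than in Sham (log2 fold change 0.44 ± 0.16, adjusted p = 0.0308). Among 6 tested genes of cysteine oxidation and taurine, 1 rose and 2 fell in RYGB against Sham, beside 12.7% and 11.0% of all genes. In WM against Sham, 2 rose and 2 fell, beside 16.5% and 15.0% of all genes.

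Mthfd1l (chromosome 10, 3973118 to 4167081), which releases formate from folate in mitochondria, had few counts in all groups. It spanned 0 to 0.5029 CPM in RYGB livers (median 0.2229), 0 to 1.793 CPM in WM livers (median 0.2991) and 0.8629 to 4.05 CPM in Sham livers (median 1.587), from 0 to 8, 0 to 24 and 16 to 75 counts per library. RYGB and Sham libraries did not overlap, and 7 of 8 WM libraries lay below the Sham median. The log2 fold change was -3.27 ± 0.76 in RYGB against Sham and -1.96 ± 0.70 in WM against Sham (edgeR adjusted p = 0.00231 and 0.0333). Mthfd1l was kept for testing only through its Sham counts, and was not kept when RYGB and WM were fitted alone. With no filter on any gene the values were -3.27 and -1.95, with adjusted p = 0.00294 and 0.0401. The WM call was lost when any 1 of WM 1, WM 9, WM 13, WM 20, WM 27, Sham 3, Sham 16 and Sham 23 was left out, with adjusted p between 0.0505 and 0.0756. With limma-voom the WM value was -2.83, and with limma-trend on the deposited normalized values -2.56.

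Apart from Bhmt and Cth, none of the 10 genes passed the test between RYGB and WM. At an unadjusted edgeR p under 0.05 the count was also 2 higher and 0 lower, at a threshold where all genes were not counted. DESeq2 gave 2 higher and 0 lower too, beside 224 higher and 138 lower over all genes. Log2 fold changes in RYGB against WM were -0.40 for Gnmt, 0.04 for Nnmt, 0.07 for Ahcy, -0.06 for Csad and 0.06 for Cdo1. Their 95% intervals were -1.05 to 0.24 for Gnmt, -0.38 to 0.46 for Nnmt, -0.21 to 0.35 for Ahcy, -0.68 to 0.56 for Csad and -0.34 to 0.46 for Cdo1. For Mthfd1l the interval, -2.89 to 0.25, left a wide range of differences, at a log2 fold change of -1.32 ± 0.77 (edgeR adjusted p = 0.563).

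The 10 genes stand in a wider list of 81 genes of 1-carbon and sulfur amino acid metabolism in 12 roles, of which 75 were tested. In RYGB against Sham 21 rose and 6 fell, with a median log2 fold change of 0.21 over the 75, and in WM against Sham 18 rose and 14 fell, with a median of 0.185. Over all tested genes the medians were -0.015 and -0.008, with 12.7% higher and 11.0% lower in RYGB against Sham, and 16.5% higher and 15.0% lower in WM against Sham. These shares also stand beside each count by role given next. Between RYGB and WM, Bhmt and Cth rose and none fell, with a median of 0.06. At an unadjusted edgeR p under 0.05 the counts between RYGB and WM were 7 higher and 1 lower. All genes were not counted at that threshold, so these counts have no share to stand beside. DESeq2 called 3 higher and 0 lower, beside 224 higher and 138 lower over all genes. Scaled by library totals, 10 rose and 17 fell in RYGB against Sham, 10 rose and 22 fell in WM against Sham, and 1 rose between RYGB and WM. Without the 3 libraries with acinar transcripts the counts were 13 higher and 6 lower for RYGB, and 15 higher and 15 lower for WM, with 1305 higher and 1021 lower over all genes for RYGB, and 1964 higher and 1698 lower for WM.

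Gclc, the catalytic subunit of the enzyme that commits cysteine to glutathione, fell in both comparisons with Sham and had the smallest p of the list in WM. It spanned 241.1 to 434.9 CPM in RYGB livers (median 323.4), 136.1 to 255.3 CPM in WM livers (median 230.7) and 379.6 to 1348 CPM in Sham livers (median 979.5). WM and Sham libraries did not overlap, and RYGB libraries all lay below the Sham median. Against Sham its log2 fold change was -1.51 ± 0.20 in RYGB and -2.15 ± 0.20 in WM (edgeR adjusted p = 3.59e-06 and 1.7e-08), and 0.63 ± 0.20 between RYGB and WM (adjusted p = 0.116). Gss, which completes glutathione, fell in WM against Sham by 0.53 ± 0.19 on the log2 scale (adjusted p = 0.0342).

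Enzymes that oxidise choline, betaine and the methyl groups of glycine rose in 3 of 5 cases in RYGB against Sham, beside 12.7% of all genes, and 1 rose and 1 fell in WM against Sham, beside 16.5% and 15.0%. Dmgdh, which oxidises the dimethylglycine left by Bhmt, averaged 380.2 ± 46.5 CPM in RYGB, 314.2 ± 57.1 CPM in WM and 160.8 ± 48.9 CPM in Sham, and neither RYGB nor WM libraries overlapped those of Sham. Its log2 fold change was 1.24 ± 0.17 in RYGB and 0.97 ± 0.17 in WM against Sham (edgeR adjusted p = 4.56e-06 and 6.39e-05). Pipox, which oxidises sarcosine, the product of Gnmt, rose in RYGB against Sham (log2 fold change 0.83 ± 0.23, adjusted p = 0.00906), as did Aldh7a1, which oxidises betaine aldehyde (0.76 ± 0.28, adjusted p = 0.0477). Chdh, which starts choline oxidation, fell by 0.58 ± 0.16 in WM against Sham (adjusted p = 0.00588).

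Of 11 tested methyltransferases for small molecules, 4 rose and none fell in RYGB against Sham, and 4 rose and 2 fell in WM against Sham, beside 12.7% higher and 11.0% lower of all genes for RYGB and 16.5% and 15.0% for WM. Beside Gnmt and Nnmt these were Pemt, which makes phosphatidylcholine, with log2 fold changes of 0.83 in RYGB and 0.96 in WM, and Inmt, which methylates indole amines, with 0.94 in RYGB and 1.14 in WM. As3mt, an arsenic methyltransferase, and Hnmt, which methylates histamine and was named after its values were seen, fell in WM against Sham by 0.65 and 0.79 on the log2 scale. Of 6 tested genes of sulfide and mercaptopyruvate, Tst, which transfers sulfur to cyanide, and Mpst, which transfers it from mercaptopyruvate, rose in both, with log2 fold changes of 0.93 and 0.73 in RYGB and 1.09 and 0.80 in WM. Sqor, which oxidises sulfide, rose in WM against Sham (0.44, adjusted p = 0.0279).

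Folate genes went both ways. Mthfd1, the cytosolic enzyme that interconverts folates, rose by 1.12 ± 0.17 in RYGB and 1.07 ± 0.17 in WM against Sham on the log2 scale (edgeR adjusted p = 2.86e-05 and 3.18e-05), and no RYGB or WM library overlapped Sham. Aldh1l1, which oxidises formyl folate, rose by 0.84 in RYGB, and Shmt1, a serine hydroxymethyltransferase, by 0.88 in WM. Shmt1 in RYGB (0.52) and Fpgs, which adds glutamates to folate, in WM (-0.67) also passed and were named after their values were seen. Of 12 tested cytosolic folate genes, 4 rose in RYGB against Sham, and 3 rose and 1 fell in WM against Sham. Folr2, a folate receptor known from macrophages, rose by 1.48 in RYGB and 1.21 in WM. The summed level of 10 Kupffer cell markers was 433.8 ± 217 CPM in RYGB, 406.2 ± 167 CPM in WM and 177.8 ± 106 CPM in Sham, within ranges of 230.7 to 908.9, 275 to 796.9 and 78.01 to 374.3 CPM. Of these markers 8 rose in RYGB and 7 in WM against Sham, beside 12.7% and 16.5% of all tested genes. The part of this in the rise of Folr2 was not tested.

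In mitochondrial folate metabolism, 9 genes were tested, of which 3 rose and 2 fell in RYGB against Sham and 2 rose and 3 fell in WM against Sham. Slc25a32, the carrier that brings folate into mitochondria, fell in both, by 1.19 ± 0.28 in RYGB and 0.84 ± 0.27 in WM on the log2 scale (edgeR adjusted p = 0.00226 and 0.0197). Gcsh, the carrier protein of the glycine cleavage system, rose in both (log2 fold changes 0.60 in RYGB and 0.62 in WM). Gldc, the decarboxylase of the same system, fell in WM by 1.05 ± 0.25 (adjusted p = 0.00162). Mtfmt, which formylates the initiator tRNA of mitochondria, rose in both (0.91 in RYGB and 0.59 in WM). The WM value of Mtfmt, and Amt, a further enzyme of glycine cleavage that rose by 0.55 in RYGB, were named after their values were seen.

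Among 10 genes of methionine salvage and polyamines, 2 rose and 1 fell in each comparison with Sham. Sms, which makes spermine, fell by 1.11 ± 0.20 in RYGB and 1.47 ± 0.21 in WM on the log2 scale (edgeR adjusted p = 0.000207 and 4.18e-06), and WM and Sham libraries did not overlap. Odc1, which makes putrescine, rose by 0.76 in RYGB and 1.00 in WM, and Apip, a dehydratase of methionine salvage, by 1.04 in RYGB and 0.94 in WM. In SAM synthesis no gene of 3 was called in either comparison, and among the 4 genes of SAH hydrolysis and adenosine removal Ahcy alone was called.

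**Figure D4:**
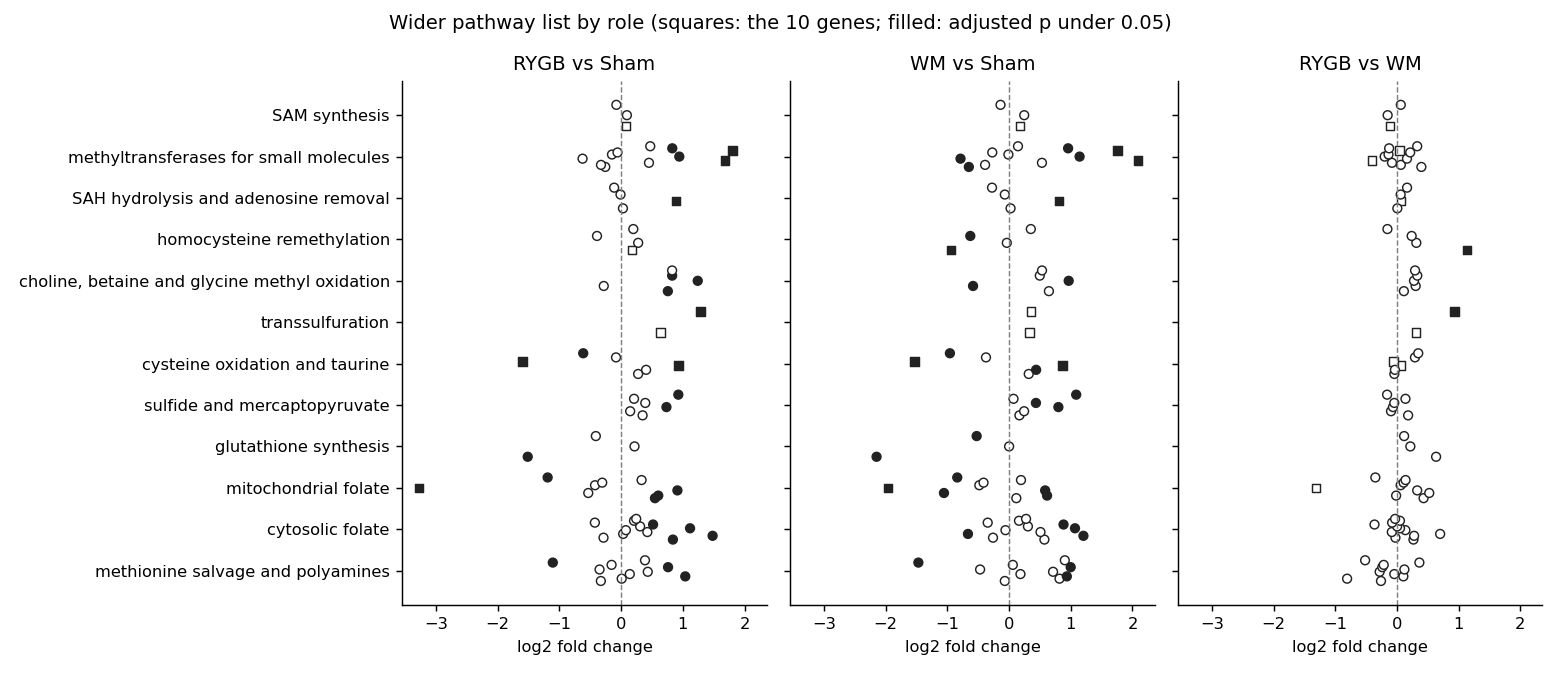
Log2 fold change of each tested gene of the wider list (75 genes, in 12 roles down the page) in RYGB against Sham, WM against Sham and RYGB against WM. Squares are the 10 genes, circles the other listed genes, and filled symbols passed an adjusted p of 0.05: 27, 32 and 2 of the 75.

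Spread within groups differed among the 10 genes. The coefficient of variation in RYGB libraries was 10.9% for Bhmt and 13.8% for Ahcy, against 49% for Gnmt and 97.1% for the sparsely counted Mthfd1l. For Bhmt it was 36.1% in WM and 30.7% in Sham. For Cbs it was 46% in RYGB, 79.9% in WM and 53.4% in Sham. Within groups of 8, the levels of 5 pairs of enzymes that stand near each other in the pathway were correlated in 30 tests by exact permutation of pairings. None passed adjustment. The lowest p belonged to Cbs and Cth in Sham (r = -0.866, p = 0.0057, adjusted p = 0.171, rho = -0.738 with p = 0.0458, r = -0.993 without the 2 libraries farthest from the median of Cbs). In RYGB and WM the r of this pair was -0.605 and -0.553 (p = 0.112 and 0.155, exact permutation).

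As a description over the 24 libraries, each gene's log2 level less its group mean was compared with that of 8367 genes (8368 for Mthfd1l). The genes that ran most like each were Cabin1 for Mat1a (r = 0.929), Cyc1 for Gnmt (r = 0.886), Hint2 for Nnmt (r = 0.773), Taf15 for Ahcy (r = 0.633), Fah for Cbs (r = 0.974), Plxnc1 for Cth (r = 0.819), Gdi2 for Cdo1 (r = 0.901), Pkp4 for Csad (r = 0.778) and Atf7 for Mthfd1l (r = 0.721). Among the 45 pairs of the 10 genes, r was highest for Gnmt and Mat1a (0.651) and lowest for Cdo1 and Mat1a (-0.814). These points share library, depth and base composition.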

How the data were processed

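Read counts per gene from 24 mouse liver libraries, 8 per group, were analysed as the authors deposited them. Per the labels' protocols, RNA was prepared with a QuantSeq 3′ kit and read for 50 bp. The authors also deposited a normalized signal, in which the counts of a library share 1 divisor, and it served 1 alternative. DESeq2 1.34 and R 4.1.2 are named in the submitters' processing notes. What aligned and counted the reads, the build and the strand setting were not given in the sources used here. Groups came from the labels. No 2 libraries of a group were duplicates (chi-square per degree of freedom 26.4 to 578 over 84 pairs).

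In R 4.3.3, edgeR 4.0.16 kept 13121 genes by filterByExpr, scaled libraries by TMM and fitted a quasi-likelihood model to all 24 libraries without covariates (common biological coefficient of variation 0.398). Adjustment (Benjamini-Hochberg) ran over all tested genes, with a threshold of 0.05. Fold changes are log2, ± standard error. The hepatocyte marker sum was compared by two-sided exact permutation of 8 against 8 libraries (the smallest p it can give is 0.000155), adjusted over 3 comparisons, and correlations by exact permutation of 8 pairings (SciPy 1.17.1, Python 3.11.15). Levels of 3′ libraries were not divided by length. The labels name no molecular identifiers, so that counts may hold PCR copies.

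The members and lists were chosen with earlier results of these data known. Named beside the 10 genes were, within each role of the wider list and each comparison, up to 3 called genes with the smallest p, and for each member the genes running most like it among those averaging at least 5 CPM. Gene positions, lengths and GC content came from GENCODE M21 (GRCm38) by Ensembl ID, since deposited positions did not match that build, and promoters from RefSeq. Alternatives were DESeq2 1.42.0, RLE size factors, library totals, no filter, a fit of only the 2 groups compared, limma-voom (quality weights) and limma-trend (limma 3.58.1, log2 of the deposited signal plus a pseudocount of 1), a GC and length correction (mgcv 1.9.3), leaving out the 3 libraries with acinar transcripts, and leaving out each library in turn. Of the wider list, 1 gene is not reported here. The fit was tested on simulated data.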

Additional observations from a re-analysis of the deposited data

Results flagged for a closer look

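Cbs in weight-matched livers stood out through WM 25, at 901.7 CPM, where the next highest WM library held 340.3 CPM. The gap between these 2 libraries was 0.741 of the whole range of the group. It was the 1 such case among the 30 groups checked (10 genes in 3 groups), where chance alone gives about 1 in 20. WM 25 also had the steepest slope of log2 level on GC content of all WM libraries, 0.719 per 10 percentage points, against a group mean of 0.066 ± 0.314, and the part of that slope in the Cbs level was not tested.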

How the results depend on the processing

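No paired analysis was possible because the groups share no replicate numbers. Of 269 values recomputed with all libraries or without the 3 with acinar transcripts, 254 kept their direction and side of the threshold, 3 lost the threshold, 1 gained it and 11 that were not called changed sign. Of 720 values with 1 library left out, the numbers were 699 kept, 11 lost and 10 uncalled values with another sign. No called value changed sign. Calls over all genes between RYGB and WM, 196 in all, numbered 362 with DESeq2, 121 with the compared groups alone and 331 with the GC and length correction. Those in RYGB against Sham, 3109 in all, numbered 5018 with limma-voom. Library totals left 1 call between RYGB and WM, among the 10 genes and in the wider list, and leaving out 1 library gave 1 to 2 calls among the 10 and 1 to 3 in the list (1 in both without WM 1, RYGB 10 or RYGB 11). The hepatocyte marker difference between RYGB and WM was 0.3186 without the acinar libraries (adjusted p = 0.0619) and 0.2934 to 0.4144 with 1 library left out, and did not pass without WM 1, WM 20, WM 27, RYGB 10 or RYGB 29 (adjusted p = 0.051 to 0.0538). The causes were not tested. Mthfd1l did not pass the filter in the fit of RYGB and WM alone and has no value there. Its 0 to 8 counts per RYGB library limit the precision of its fold change.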

Other observations

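Cdo1 followed the number of genes with at least 1 count in a library, a relation chosen after its values had been seen. The adjustment over 24 tests does not cover that choice, so the p-values given here are a description. Pearson's r was 0.799 in RYGB, 0.908 in WM and 0.809 in Sham, with adjusted p = 0.045, 0.0115 and 0.0398 by exact permutation of the 8 pairings over 24 tests of 12 relations. Spearman's rho was 0.714, 0.786 and 0.857, with adjusted p = 0.0864, 0.0559 and 0.0367. Without the 2 libraries farthest from the median, r was 0.678 in RYGB, 0.818 in WM and 0.752 in Sham. Mat1a against the GC slope gave r = 0.717 in RYGB, 0.82 in WM and 0.286 in Sham (adjusted p = 0.0804, 0.0335 and 0.523 by exact permutation), with rho of 0.905, 0.619 and 0.405 (adjusted p = 0.0261, 0.153 and 0.374), and without the 2 farthest libraries r was 0.454, 0.63 and 0.0305. Cth against the GC slope gave r = -0.502 in RYGB, -0.52 in WM and -0.725 in Sham (adjusted p = 0.258, 0.237 and 0.0728 by exact permutation), with rho of -0.262, -0.286 and -0.762 (adjusted p = 0.536, 0.523 and 0.0679), and r was -0.117, -0.265 and -0.929 without the 2 farthest libraries.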
